A study of Mus musculus with 8 samples.

Results

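The cornea is built of a stratified surface epithelium, a collagen-rich stroma kept by keratocytes, and an inner endothelium, and each layer depends on its own set of lineage transcription factors. Pax6, a paired-box and homeodomain factor, is required for eye formation and for the identity of the corneal epithelium, where the zinc finger factors Klf4 and Klf5, the ETS factors Ehf and Elf3 and the AP-2 factor Tfap2a also act. Tfap2b, another AP-2 factor, and the forkhead factors Foxc1 and Foxc2 are known from the neural crest-derived periocular mesenchyme, the source of stroma and endothelium.

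These 9 genes are a list of names out of the 54532 genes in the table of expression values, and each was matched by its Ensembl identifier to a symbol of the GRCm38 annotation. All 9 passed the filter on low values. The samples were naive, unwounded corneas of 2 inbred mouse strains, 4 of BALB/c (BALB/cN in the study) and 4 of C57BL/6N. The study contrasted these strains because BALB/c forms few and C57BL/6N many lymphatic vessels at the corneal limbus, and only male animals were used for sequencing. Neither strain carried a transgene or received a treatment, and the methods give 4 corneas of each strain but neither an age for the sequenced animals, as distinct from those used for vessel measurements, nor whether each cornea came from another animal, so that p-values measure the spread between these samples.

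The values were regularized log (rlog) values, which are on a log2 scale and are normalized for library size. They are shrunken towards the mean of the gene, most strongly where few reads were counted but also in abundant genes. Strains were compared with limma over the 25402 genes whose mean rlog value was not below 0, differences are BALB/c minus C57BL/6N, and a gene was called where its adjusted p-value did not exceed 0.01. Read counts recovered from the rlog values summed to between 36.7 and 41.2 M reads in BALB/c and between 29.7 and 37.0 M in C57BL/6N corneas. Where genes were compared with each other, recovered reads per kilobase of exon and per M reads (RPKM), scaled by the size factors recovered with them, were used. The labelled tissue matched its markers, since Krt12, the keratin of the corneal epithelium, had rlog values between 19.60 and 19.85 in all 8 corneas. The corneas differed in their content of stromal transcripts. The mean rlog value of 10 keratocyte genes, all of them detected, lay between 11.95 and 13.97 in BALB/c and between 11.41 and 14.02 in C57BL/6N, and was lowest in C57BL/6N replicate 4 (11.41), C57BL/6N replicate 3 (11.45) and BALB/c replicate 2 (11.95). Of these genes, Ptgds varied most in BALB/c, with rlog values between 6.42 and 12.58 (SD 3.06), against SDs between 0.37 and 1.55 in the others. Ptgds was kept in this mean in all later fits. In whole corneas, fewer cells of a type and less RNA per cell cannot be told apart.

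None of the 9 factors was called between the strains. Over all genes tested 5.74% were called, a count that fell to 0 when p-values were recalibrated to an empirical null (limma, 1732 genes then had an unadjusted p under 0.05). Klf4 and Foxc1 were the 2 of 9 members with an adjusted p-value of at most 0.05, a limit passed by 11.2% of all genes, and the same 2 members had strains that did not overlap, as did 18.3% of all genes. The mean was lower in BALB/c for 7 and higher for 2 members, and the median difference of the 9 members was -0.20 against 0.01 over all genes tested. The 7 include Tfap2a (-0.01) and Foxc2 (-0.04), whose sign changed with the processing. Tfap2b had the widest range over the 8 corneas, and the strains overlapped in it.

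The sequences before the RefSeq transcription start are shown for 3 factors: Klf4 and Foxc1, whose strains did not overlap, and Tfap2b, which varied most between corneas. No expression value was tested against a motif in these reference sequences. Each is the 250 bases that end 1 base before the start, read 5′ to 3′ on the strand of the gene (RefSeq, GRCm38.p6), with matches of the searched motifs in capitals. The window of Klf4 is chr4:55532476-55532725 on the minus strand, and that of Foxc1 is chr13:31806396-31806645 on the plus strand. The window of Foxc1 runs past the start of the gene in the GENCODE annotation (31806633). That of Tfap2b is chr1:19211804-19212053 on the plus strand, within an intron of the longer transcripts of the GENCODE annotation.
Klf4: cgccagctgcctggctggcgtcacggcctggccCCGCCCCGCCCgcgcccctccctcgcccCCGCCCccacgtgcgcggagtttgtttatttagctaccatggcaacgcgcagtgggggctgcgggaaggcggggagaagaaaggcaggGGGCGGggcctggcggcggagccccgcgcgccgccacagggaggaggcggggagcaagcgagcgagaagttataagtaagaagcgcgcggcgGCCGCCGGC
Foxc1: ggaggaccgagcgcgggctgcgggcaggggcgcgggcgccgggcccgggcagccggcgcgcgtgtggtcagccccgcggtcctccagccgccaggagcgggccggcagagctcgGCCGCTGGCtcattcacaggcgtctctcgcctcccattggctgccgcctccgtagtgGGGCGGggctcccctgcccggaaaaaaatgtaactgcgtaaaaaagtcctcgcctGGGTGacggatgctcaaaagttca
Tfap2b: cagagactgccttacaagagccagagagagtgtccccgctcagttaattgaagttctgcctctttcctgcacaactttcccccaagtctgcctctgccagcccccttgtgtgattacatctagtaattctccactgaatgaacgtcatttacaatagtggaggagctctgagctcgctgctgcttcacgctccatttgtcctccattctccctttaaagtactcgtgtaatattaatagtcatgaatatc

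The motifs were searched on both strands by their letters: the CACCC box (CACCC), the GC box (GGGCGG), an AP-2 motif (GCCNNNGGC), an ETS motif (CCGGAAG), a forkhead motif (GTAAACA) and the TATA box (TATAAA). Klf4 held 4 GC boxes, of which a pair shares 1 base, and 1 AP-2 motif. Foxc1 held 1 CACCC box, 1 GC box and 1 AP-2 motif, and Tfap2b held none of the 6. Of 32851 promoters of the same length, 52% held a CACCC box, 32.7% a GC box, 13.7% the AP-2 motif, 6.91% the ETS motif, 3.17% the forkhead motif and 12.4% a TATA box. These shares count promoters with at least 1 match, so they do not give the share with 4 GC boxes, as before Klf4. RefSeq entries were matched for 6 of the 9 members, that is for all but Klf5, Ehf and Foxc2.

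Per length of exon, Klf4 had the highest level of the 9 members, with a mean of 523 RPKM over the 8 corneas. Elf3 followed with 280.7, Klf5 with 191.2, Ehf with 138.9, Pax6 with 129.2 and Tfap2a with 73.6 RPKM. The order was the same in 8 of 8 corneas from Klf4 down to Ehf, whereas Ehf exceeded Pax6 in 6 of 8. The level of Pax6 was divided by a long union of exons (11694 bases). Foxc1 (28.8 RPKM) and Tfap2b (28.1 RPKM) did not differ beyond their spread, and Foxc1 was the higher of the pair in 3 of 8 corneas. Foxc2 had a mean of 0.147 RPKM and was the lowest member in each cornea. By mean rlog value, Pax6 exceeded 99.8% of the tested genes and Foxc2 28.2%.

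**Figure D1:**
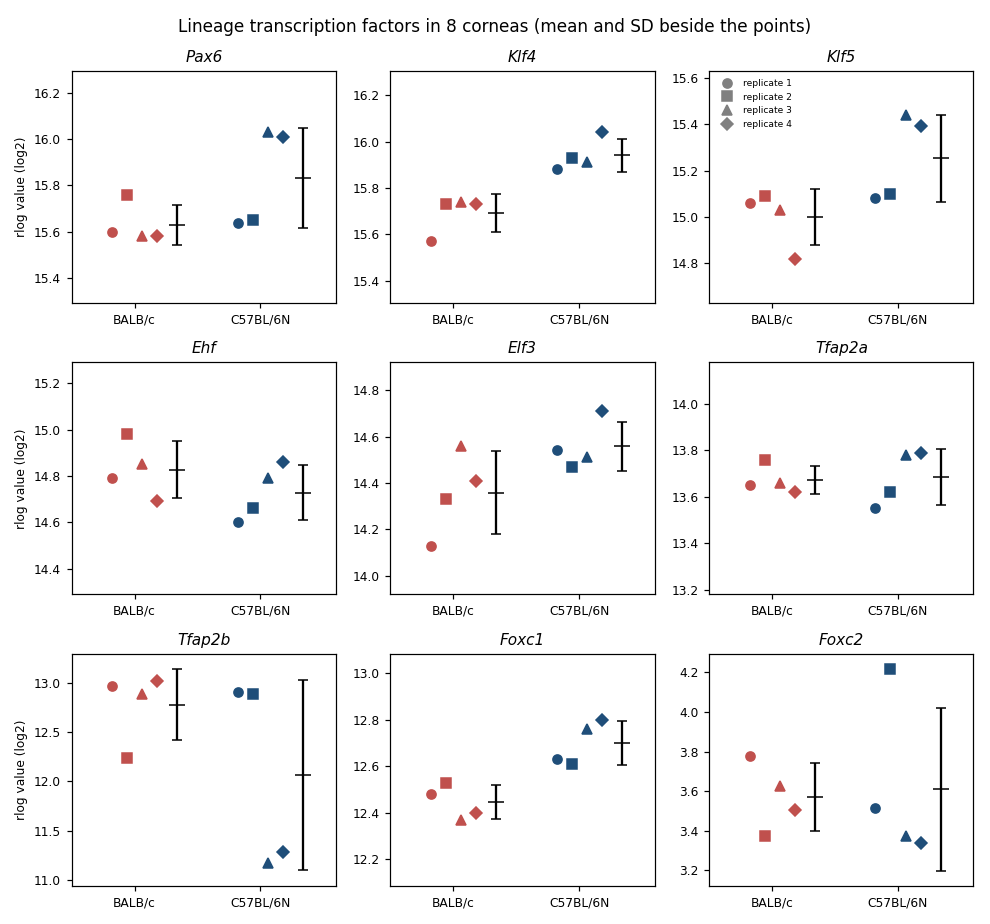
The rlog value (log2 scale) of each factor is plotted for 4 BALB/c (red) and 4 C57BL/6N (blue) corneas, with the mean and SD (n = 4) beside the points and the marker shape giving the replicate; axes differ between panels and do not start at 0. The strains are apart for Klf4 and Foxc1, while Tfap2b is lowest in C57BL/6N replicates 3 and 4.

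Pax6 (ENSMUSG00000027168, chr2:105668900-105697364, plus strand) had rlog values of 15.60, 15.76, 15.58 and 15.58 in BALB/c replicates 1 to 4 and of 15.64, 15.65, 16.03 and 16.01 in C57BL/6N replicates 1 to 4. C57BL/6N replicates 3 and 4 were the highest of the 8 corneas, and the first 2 replicates of that strain lay within the BALB/c range. The difference between strains was -0.20 (SE 0.0986, 95% interval -0.43 to 0.02, limma adjusted p = 0.252), which did not pass the threshold, and quantile normalization gave -0.10. Pax6 made up between 99.5% and 99.9% of the RPKM of the PAX family, in which Pax3, Pax9 and Pax2 were the other genes that passed the filter on low values.

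Klf4 (ENSMUSG00000003032, chr4:55527143-55532466, minus strand), known for its part in epithelial differentiation and barrier formation, had rlog values of 15.57, 15.73, 15.74 and 15.73 in BALB/c and of 15.88, 15.93, 15.91 and 16.04 in C57BL/6N replicates 1 to 4. The highest BALB/c cornea lay below the lowest C57BL/6N cornea. The difference was -0.25 (SE 0.0548, 95% interval -0.37 to -0.12), or 0.842-fold on the rlog scale, with an adjusted p of 0.018 from limma and p = 0.0286 in an exact two-sided permutation test, the smallest value that 4 against 4 corneas allow. It thus missed the threshold of 0.01. On the recovered reads, limma voom gave a log2 ratio of -0.33 (adjusted p = 0.0164), so the rlog difference was the smaller in size. Quantile normalization gave a difference of -0.14 (limma adjusted p = 0.149) and median centring one of -0.32 (limma adjusted p = 0.107). The size of the difference thus depended on the scaling. Leaving out each cornea in turn gave limma adjusted p-values from 0.0249 to 0.051.

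Klf5 (ENSMUSG00000005148, chr14:99298691-99315036, plus strand), a close relative of Klf4 that acts in proliferating epithelium, had rlog values of 15.06, 15.09, 15.03 and 14.82 in BALB/c and of 15.08, 15.10, 15.44 and 15.39 in C57BL/6N replicates 1 to 4. As for Pax6, C57BL/6N replicates 3 and 4 were the highest corneas, and the strains overlapped. The difference was -0.26 (SE 0.095, 95% interval -0.47 to -0.04, adjusted p = 0.133 from limma), and quantile normalization gave -0.15.

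Ehf and Elf3 are ETS factors of epithelia. Ehf (ENSMUSG00000012350, chr2:103263433-103303278, minus strand) had rlog values of 14.79, 14.98, 14.85 and 14.69 in BALB/c and of 14.60, 14.66, 14.79 and 14.86 in C57BL/6N replicates 1 to 4. The strains overlapped, with a difference of 0.10 (SE 0.075, 95% interval -0.07 to 0.27, limma adjusted p = 0.463), which was 0.03 after median centring and 0.17 after quantile normalization. It was 0.05 without BALB/c replicate 2 and 0.06 without C57BL/6N replicate 1.

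Elf3 (ENSMUSG00000003051, chr1:135253575-135258568, minus strand) had rlog values of 14.13, 14.33, 14.56 and 14.41 in BALB/c and of 14.54, 14.47, 14.51 and 14.71 in C57BL/6N replicates 1 to 4. BALB/c replicate 1 was the lowest cornea, and BALB/c replicate 3 lay within the C57BL/6N range. The difference was -0.20 (SE 0.0894, 95% interval -0.40 to -0.0014, limma adjusted p = 0.208), and without BALB/c replicate 1 it was -0.13. The antisense gene Gm26642 shares 162 exon bases with Elf3, and its reads came to 0.116% of those of Elf3.

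The 2 ETS factors were also set against each other within each cornea. The ratio of Ehf to Elf3 in RPKM was 0.682, 0.668, 0.486 and 0.481 in BALB/c and 0.392, 0.441, 0.477 and 0.426 in C57BL/6N replicates 1 to 4. All BALB/c ratios lay above all C57BL/6N ratios, but BALB/c replicate 4 and C57BL/6N replicate 3 were close to each other. The ratio was chosen after the values were seen and was not tested.

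Tfap2a (ENSMUSG00000021359, chr13:40715302-40738376, minus strand) varied least of the 9 members. Its rlog values were 13.65, 13.76, 13.66 and 13.62 in BALB/c and 13.55, 13.62, 13.78 and 13.79 in C57BL/6N replicates 1 to 4. The difference of -0.01 (SE 0.0638, adjusted p = 0.94 from limma) had a 95% interval from -0.15 to 0.13, and its sign changed with quantile normalization (0.04). Reads of the antisense genes Gm47061, Gm26688 and Gm47067, which share exon bases with Tfap2a, each came to at most 0.714% of those of Tfap2a.

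Tfap2b (ENSMUSG00000025927, chr1:19208914-19238576, plus strand) varied most. Its rlog values were 12.97, 12.24, 12.89 and 13.02 in BALB/c and 12.91, 12.89, 11.17 and 11.28 in C57BL/6N replicates 1 to 4, from 10488, 5326, 8929 and 9750 reads and from 8373, 8412, 1310 and 1738 reads, respectively. The first 2 C57BL/6N corneas lay within the BALB/c range, and the other 2 lay far below it. The highest cornea had 5.71 times the normalised read count of the lowest. The difference between strains, 0.72 (SE 0.413, 95% interval -0.21 to 1.65, adjusted p = 0.335 from limma), did not exceed the spread between replicates. It was 0.42 without C57BL/6N replicate 3 and 0.46 without C57BL/6N replicate 4. Without the 3 corneas lowest in stromal transcripts it was 0.06 (adjusted p = 0.530), a setting chosen after seeing the data.

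The ratio of Tfap2a to Tfap2b in RPKM showed the same corneas apart. It was 1.84, 3.92, 1.99 and 1.70 in BALB/c and 1.77, 1.91, 11.2 and 10.2 in C57BL/6N replicates 1 to 4. Within the AP-2 family, Tfap2a took between 54.8% and 76.2% and Tfap2b between 6.78% and 32.2% of the RPKM, with Tfap2c as the third gene.

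Foxc1 (ENSMUSG00000050295, chr13:31806633-31812476, plus strand), a single-exon gene needed for the anterior segment of the eye, had rlog values of 12.48, 12.53, 12.37 and 12.40 in BALB/c and of 12.63, 12.61, 12.76 and 12.80 in C57BL/6N replicates 1 to 4. The highest BALB/c cornea lay just below the lowest C57BL/6N cornea. The difference was -0.25 (SE 0.0603, 95% interval -0.39 to -0.12), or 0.839-fold on the rlog scale. Its adjusted p was 0.0253 from limma, with p = 0.0286 in the exact two-sided permutation test. On the recovered reads, limma voom gave a log2 ratio of -0.33 (adjusted p = 0.0239). Quantile normalization gave -0.20 (limma adjusted p = 0.0282) and median centring -0.33 (limma adjusted p = 0.129), and neither turned the direction. Leaving out each cornea in turn gave limma adjusted p-values from 0.026 to 0.0797.

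Foxc2 (ENSMUSG00000046714, chr8:121116171-121118895, plus strand), known for its part in lymphatic valves as well as in the periocular mesenchyme, was near the limit of detection. Recovered reads were 27, 2, 15 and 8 in BALB/c and 8, 61, 1 and 0 in C57BL/6N replicates 1 to 4. A single cornea, C57BL/6N replicate 2, held most reads of its strain. The rlog values, between 3.37 and 3.78 in BALB/c and between 3.34 and 4.22 in C57BL/6N, are strongly shrunken at such counts. Their difference was -0.04 (SE 0.185, 95% interval -0.46 to 0.38, limma adjusted p = 0.927), while limma voom on the recovered reads gave a log2 ratio of 0.81 (adjusted p = 0.769), so no direction can be given at this depth.

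**Figure D2:**
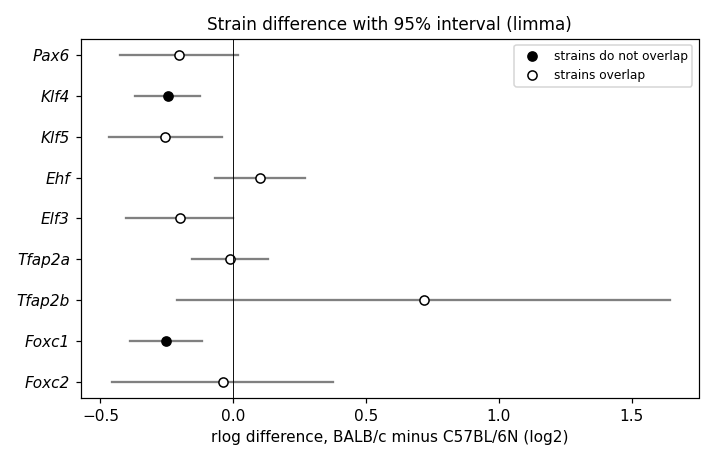
The rlog difference of BALB/c minus C57BL/6N (log2 scale) is plotted for each factor with its 95% interval from limma (4 corneas per strain); filled points mark factors whose strains do not overlap. Klf4 at -0.25 and Foxc1 at -0.25 are the filled points, and Tfap2b has the widest interval, from -0.21 to 1.65.

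The content of stromal transcripts moved with several members. Tfap2b was lowest, and Foxc2 had between 0 and 2 reads, in the 3 corneas with the lowest means of the keratocyte genes. The mean of 6 corneal endothelium genes, all detected, was lowest in the same corneas, with 11.66 in BALB/c replicate 2, 11.53 in C57BL/6N replicate 3 and 11.35 in C57BL/6N replicate 4, against 12.19 to 12.51 in the other corneas. The mean of 9 corneal epithelium genes lay between 16.68 and 16.90 in all corneas.

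In a fit with strain and the mean of the keratocyte genes together, the rlog value of Tfap2b changed by 0.577 (SE 0.0415) per unit of that mean, more than in 99.1% of the tested genes. The slope of Foxc2 was 0.182 (SE 0.0618). Pax6 had a slope of -0.13 (SE 0.0145), below which lay 1.74% of the tested genes, and Klf5 one of -0.11 (SE 0.0221). Ehf (-0.09), Tfap2a (-0.07), Foxc1 (-0.06), Elf3 (-0.04) and Klf4 (-0.03) had smaller slopes. The members with positive slopes were thus Tfap2b and Foxc2, and all others had negative ones, as a description over 8 corneas whose values sum over all cell types.

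In that fit Klf4 (-0.23, adjusted p = 0.0053 from limma) and Foxc1 (-0.22, adjusted p = 0.0038) passed the threshold, 2 of 9 members, beside 9.57% of all genes tested. For Tfap2b the difference was 0.39 (adjusted p = 0.0145), for Ehf 0.15 (adjusted p = 0.0183), for Pax6 -0.13 (adjusted p = 0.0185) and for Klf5 -0.19 (adjusted p = 0.0215). When the 3 corneas lowest in stromal transcripts were left out instead, no member was called, and the differences of Klf4 and Foxc1 were -0.23 and -0.20 (limma adjusted p = 0.0782 and 0.0567). Those of Pax6 and Klf5 were then -0.06 and -0.12 (limma adjusted p = 0.329 and 0.383).

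**Figure D3:**
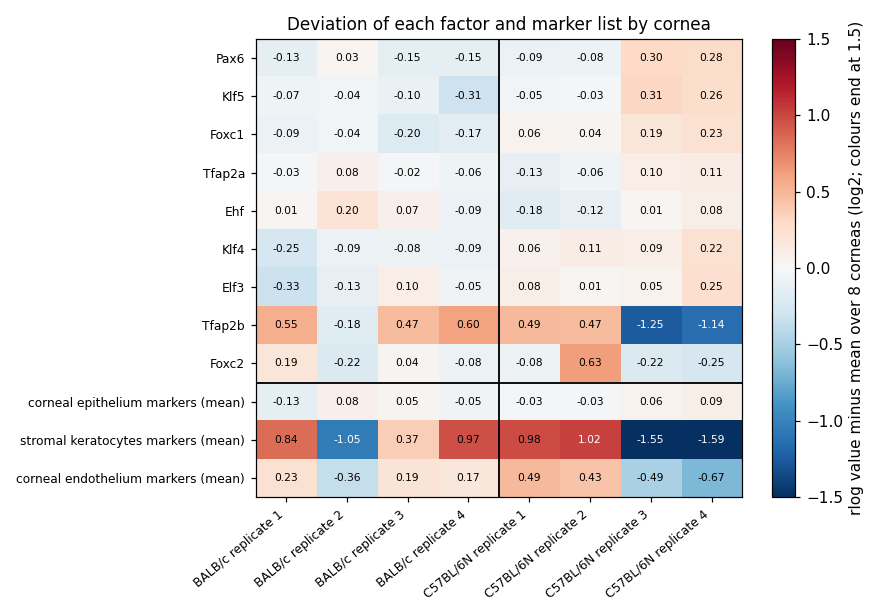
Each cell gives the rlog value of a factor, or the mean of a marker list, in 1 cornea minus its mean over the 8 corneas (log2 scale, colours end at 1.5); the vertical line parts the strains and the horizontal line the factors from the lists. Tfap2b falls to -1.25 and -1.14 in C57BL/6N replicates 3 and 4, where the keratocyte mean is at -1.55 and -1.59 and Pax6 and Klf5 lie above their means.

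Markers of other tissues also differed between the strains. The 9 genes listed as markers of the conjunctiva, the epithelium next to the cornea, did not move together. In BALB/c 5 of them fell, namely Krt13 by 2.51, Krt4 by 1.17, Krt19 by 0.97, Krt7 by 0.90 and Muc4 by 0.48 on the rlog scale, with adjusted p-values from limma between 6.95e-07 and 0.0063. Krt7 lost the call when any cornea other than C57BL/6N replicates 2 and 4 was left out (limma adjusted p up to 0.0175), and Muc4 when any other than BALB/c replicate 3 and C57BL/6N replicate 1 was (limma adjusted p up to 0.0224). The goblet cell mucin Muc5ac (2.19, limma adjusted p = 0.0225), Krt18 (0.64, limma adjusted p = 0.0729) and Krt8 (0.40, limma adjusted p = 0.0111) had higher values in BALB/c, without overlap of the strains, and did not pass the threshold. Reads were few for Krt4 (0 to 116) and Krt8 (3 to 45), and lay between 0 and 555 for Muc5ac. The list mean lay between 8.09 and 8.43 in BALB/c and between 8.52 and 8.69 in C57BL/6N. Muc4 had a mean rlog value of 19.57, near that of Krt12 (19.71), so its level does not set conjunctiva apart from corneal epithelium here. Of 6 leukocyte genes, Aif1 was higher in BALB/c (1.66, adjusted p = 6.58e-06). Whether either has a part in the differences of the members was not tested. No gene was called in the lists of the corneal layers, lens, pigment cells, photoreceptors, muscle, Schwann cells, red blood cells and vessels. The lens mean lay between 4.78 and 7.31 in BALB/c and between 4.71 and 5.28 in C57BL/6N, and the pigment cell mean between 5.64 and 10.06 and between 6.30 and 7.62, each highest in BALB/c replicate 1 or 4. The gene with the highest mean rlog value was Col1a1 (16.54) in the keratocyte list, Slc4a11 (13.30) in the corneal endothelium, Cd68 (10.22) in the leukocyte, Dct (10.05) in the pigment cell and Myh11 (9.73) in the muscle list. It was Kdr (9.51) in the vessel list, Bfsp1 (8.34) in the lens, Sag (6.98) in the photoreceptor and Alas2 (5.88) in the red blood cell list.

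Within their families the members were mostly the leading genes. Klf4 and Klf5 together took 76.6%, 77.9%, 78.1% and 78.4% of the RPKM of 15 Krüppel-like factors in BALB/c and 81.1%, 81.2%, 81.8% and 82.7% in C57BL/6N replicates 1 to 4. The strains did not overlap in this joint share, which was not tested. They overlapped in the share of Klf4 alone (53.53% to 60.45% in BALB/c and 56.53% to 61.5% in C57BL/6N). The same held for Klf5 alone (17.98% to 23.04% and 19.72% to 25.21%). Klf3 was the next gene with 106.3 RPKM, and its rlog values overlapped between the strains (difference 0.05, adjusted p = 0.735 from limma).

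Ehf and Elf3 together took between 64.9% and 70.1% of the RPKM of 23 ETS factors in BALB/c and between 67.8% and 73.0% in C57BL/6N, so the strains overlapped. Foxc1 was not the leading forkhead gene, since Foxk1 (30.2 RPKM) and Foxp1 (29.1 RPKM) had like levels. Its share of the RPKM of 34 forkhead factors was 9.03% to 10.3% in BALB/c and 11.7% to 12.5% in C57BL/6N, again without overlap.

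**Figure D4:**
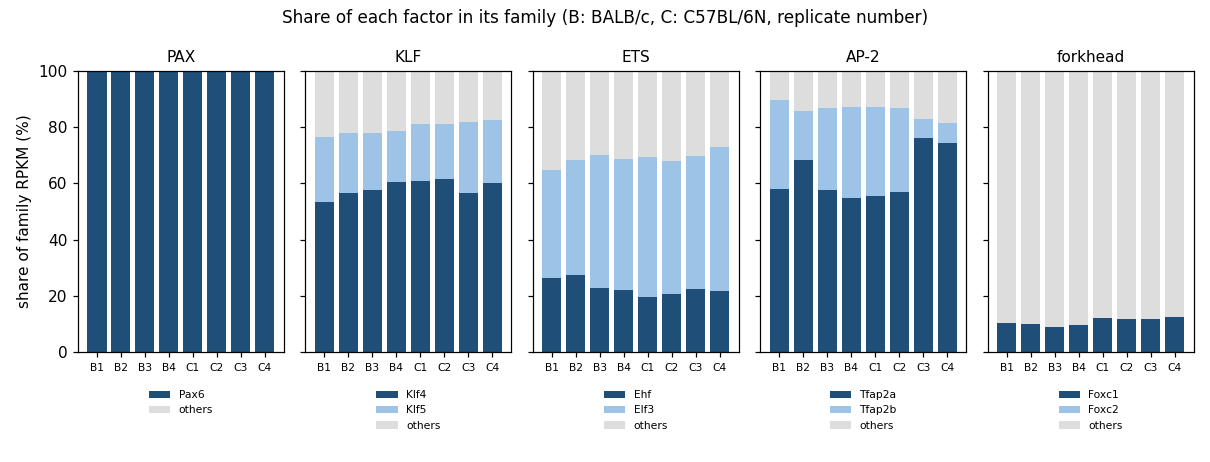
Bars give, for each cornea (B for BALB/c, C for C57BL/6N, with the replicate number), the percent of the summed RPKM of a family that each factor takes, with all other genes of the family in grey; Foxc2 is too low to be seen. Klf4 and Klf5 together reach at most 78.4% in BALB/c and at least 81.1% in C57BL/6N, and the share of Tfap2b drops to 6.78% and 7.28% in C57BL/6N replicates 3 and 4.

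Other genes of these families did pass the test, as did 5.74% of all genes tested. Of 15 Krüppel-like factors tested, the injury-responsive Klf6 was called, with a difference of -0.38 (SE 0.0579, adjusted p = 0.00236 from limma), and without BALB/c replicate 3 it missed the threshold (limma adjusted p = 0.0111). It also missed it after median centring (limma adjusted p = 0.0193) and without the 3 corneas low in stromal transcripts (0.0322) or BALB/c replicates 1 and 4 (0.0175). Klf13 (0.36, adjusted p = 0.0174) and Klf11 (0.51, adjusted p = 0.0243), picked after their values were seen, had strains that did not overlap and did not pass the threshold. Of 23 ETS factors, Etv4 and Etv5, which respond to fibroblast growth factor signalling, rose by 1.06 (SE 0.125) and 0.52 (SE 0.0816) in BALB/c (limma adjusted p = 0.00052 and 0.0028), but Etv5 missed the threshold without BALB/c replicate 3 or C57BL/6N replicate 3 (limma adjusted p up to 0.0115). Etv5 also missed it after median centring (limma adjusted p = 0.0155) and without the 3 corneas low in stromal transcripts (0.0220) or BALB/c replicates 1 and 4 (0.0335).

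Of 4 AP-2 factors tested, Tfap2e was called. Its rlog values lay between 6.17 and 6.30 in BALB/c and between 7.32 and 7.65 in C57BL/6N, a difference of -1.25 (SE 0.0953, adjusted p = 3.09e-05 from limma), although its level of 1.91 RPKM was far below that of Tfap2a. The log2 ratio of Tfap2e from limma voom on the recovered reads was -2.33. Of 34 forkhead factors, Foxo6 was called (-0.76, SE 0.13, adjusted p = 0.00479), a call lost on leaving out any cornea other than replicate 1 of either strain (limma adjusted p up to 0.0186). No PAX gene was called, and the largest difference was that of Pax9 (0.24, adjusted p = 0.0445), a gene with between 7 and 35 reads.

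The other factors of the ocular surface and the periocular mesenchyme were counted in the same way. Of 18 epithelial factors, Sox9, which marks progenitor cells of several epithelia, rose by 0.69 in BALB/c (SE 0.0543, adjusted p = 3.64e-05 from limma), with rlog values between 11.86 and 12.05 in BALB/c and between 11.24 and 11.32 in C57BL/6N. Trp63, the factor of basal epithelial cells, differed by 0.01 (SE 0.099). Of 23 mesenchymal and anterior segment factors, the homeobox genes Six2 and Msx2 rose by 1.21 and 1.01 (SE 0.155 and 0.154, limma adjusted p = 0.000902 and 0.0024). These rlog differences are shrunken, since the genes had 33 to 359 and 29 to 337 reads. Limma voom on the recovered reads gave log2 ratios of 2.22 and 1.87. Six2 missed the threshold without the 3 corneas low in stromal transcripts (limma adjusted p = 0.0245), and Msx2 without BALB/c replicates 1 and 4 (limma adjusted p = 0.0405).

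Of 15 epithelial genes reported as targets of Pax6 or Klf4, 1 rose and 2 fell in BALB/c, and the median difference was -0.03. Lama3, a laminin chain of the epithelial basement membrane, rose by 0.68 (SE 0.0672, adjusted p = 0.000164 from limma). The desmosomal cadherins Dsg1a (-0.68, SE 0.117, adjusted p = 0.00479) and Dsg1b (-0.38, SE 0.0721, adjusted p = 0.00868) fell, but as near copies of each other they may share reads, and their values are uncertain. Dsg1a lost the call on leaving out BALB/c replicate 1, 3 or 4 or C57BL/6N replicate 3 or 4, and Dsg1b on leaving out any cornea other than BALB/c replicate 2 (limma adjusted p up to 0.0205 and 0.0327). Krt12, Aldh3a1, Dsp and Krt5 differed by at most 0.04 and Tkt by 0.10, and none passed the test. Slurp1, a secreted protein of the corneal epithelium, had strains that did not overlap and a difference of -0.23 (SE 0.0693, limma adjusted p = 0.0632), and the strains did not overlap either for Lamb3 (0.31, limma adjusted p = 0.0141) and Cldn1 (0.26, limma adjusted p = 0.127), which had higher values in BALB/c. Over the 8 lists, 11 of 136 genes tested were called, beside 5.74% of all genes.

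The genes most like each member across the 8 corneas were found by the root mean square difference of standardised values among 16014 genes. Tfap2b was most like Grb10 (0.0734) and Itga1 (0.0766), and Pax6 was most like Kif13b (0.0816) and Kit (0.112). Klf4 was nearest to 6430548M08Rik and Tcaf2, Klf5 to Akap9 and Srsf11, Ehf to Adtrp and Myof, Elf3 to Serinc2 and Klc1, Tfap2a to Tmem131 and Hnrnpu, Foxc1 to Rapgef6 and Thoc2, and Foxc2 to Slc1a2 and Slc4a1. Among the members themselves, Pax6 and Klf5 were the closest pair (0.360), followed by Foxc1 and Klf5 (0.447), whereas the member nearest to Tfap2b was Foxc2 at 0.854. With so many genes and 8 corneas, small distances are found for any gene, and no test was made.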

How the data were processed

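Total RNA of 4 BALB/c and 4 C57BL/6N corneas was sequenced from strand-specific libraries; whether counting used the strand is not given in the sources used here. The authors trimmed reads, removed ribosomal and transfer RNA, aligned them with TopHat2 2.1.1 to a GRCm38 genome carrying the variants of each strain, counted reads per Ensembl gene with HTSeq 0.7.1, and deposited rlog values of DESeq2 1.30, a log2 scale that holds no raw counts. The table writes decimal commas, and 0 columns were left unused.

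Columns were assigned to corneas by the sample labels. Genes were tested with limma 3.58.1 (R 4.3.3) with a variance trend and Benjamini-Hochberg adjustment, and single members also with exact permutation tests (scipy 1.17.1). Symbols, positions and exon lengths came from GENCODE (GRCm38), promoters from RefSeq. The procedures were tested on simulated data. Members and gene lists were chosen with earlier results of these data known. The text names the 9 members, the called genes of each list (or else the largest difference), the top gene and the called genes of each marker list, called neighbours and the 2 genes most like each member. A gene that this rule names is not reported here.

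The rlog transformation was inverted to obtain read counts, with constants that made weakly expressed genes come out whole. In genes not used for the constants, 90.7% of values at normalized means of 5 to 20 reads lay within 0.1 of a whole number, 93.9% at 100 to 1000, 70.8% at 1000 to 5000 and 25.0% above, against 20% by chance. Counts of the abundant members are therefore approximate. Counting error understates their true error, because PCR copies of a molecule are counted separately. Replicates were separate libraries by their values (chi-square per gene between corneas of a strain of at least 10.1). In C57BL/6N this chi-square was 10.1 for replicates 1 and 2 and 14.6 for replicates 3 and 4. It was 84.4 to 86.2 for the other pairs of that strain. Whether alike corneas shared an animal is not given, and the tests treated the 4 corneas of a strain as independent. Alternatives were other variance models, filters, scalings and thresholds, a stromal covariate, a replicate block, and leaving out corneas. Replicate numbers were not taken as pairs.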

Additional observations from a re-analysis of the deposited data

Results flagged for a closer look

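In 5 of 82 groups of 4 values examined, a single cornea lay so far from the other 3 that its gap, divided by the range of the strain, exceeded the 95% critical value of Dixon's test. About 4.1 such groups are expected by chance. Among the members, Pax6 was flagged in BALB/c for replicate 2, whose rlog value of 15.76 stood above 15.58 to 15.60 in the others (gap over range 0.868). Klf4 was flagged for BALB/c replicate 1, at 15.57 against 15.73 to 15.74 (0.919), and Tfap2b for BALB/c replicate 2, at 12.24 against 12.89 to 13.02 (0.832). Among the marker lists, the mean of the corneal endothelium genes was low in BALB/c replicate 2 (11.66 against 12.19 to 12.25, gap over range 0.900), the cornea that was also high in Pax6 and low in Tfap2b. The mean of the photoreceptor genes was high in BALB/c replicate 1 (4.28 against 3.86 to 3.87, gap over range 0.969).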

How the results depend on the processing

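None of the 9 members was called under any alternative other than the stromal covariate (2 members, Klf4 at -0.23 and Foxc1 at -0.22) and a threshold of 0.05 (2 members). In the 20 alternatives with a test, the direction held for Pax6, Klf4, Klf5, Ehf, Elf3, Tfap2b and Foxc1. Tfap2a turned to 0.0352 with quantile normalization, 0.0308 with the stromal covariate, 0.0611 without the 3 corneas low in stromal transcripts and 0.0264 without BALB/c replicates 1 and 4, which were high in lens and pigment cell transcripts; leaving out each cornea in turn gave -0.0558 to 0.0242. Foxc2 turned to 0.81 with voom on recovered counts, and leaving out each cornea gave -0.13 to 0.16. Taken relative to the mean of the keratocyte genes, the differences were -0.77 for Pax6, -0.82 for Klf4, -0.82 for Klf5, -0.47 for Ehf, -0.77 for Elf3, -0.58 for Tfap2a, 0.15 for Tfap2b, -0.82 for Foxc1 and -0.61 for Foxc2, since that mean was itself higher in BALB/c; Ehf thereby turned its direction.

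Over all genes, 958 were called after median centring, 554 with the replicate block, 2431 with the stromal covariate, 2842 at a threshold of 0.05, 852 without the 3 corneas low in stromal transcripts and 457 without BALB/c replicates 1 and 4, against 1458; leaving out each cornea gave 953 to 1163, with the fewest without C57BL/6N replicate 4. With p-values recalibrated to an empirical null, limma called 0 genes, and 1732 had an unadjusted p under 0.05. In the 8 gene lists the counts were 7 after median centring, 0 with the empirical null, 4 with the replicate block, 19 with the stromal covariate, 20 at 0.05, 7 and 5 without the 3 or the 2 corneas, against 11, and 6 to 10 when each cornea was left out, with 6 without BALB/c replicate 3 and 7 without C57BL/6N replicate 3. Beyond fewer samples, the causes were not tested.

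Corneas with the same replicate number did not consistently deviate together (correlations of 0.305, -0.53, -0.20 and -0.45 for numbers 1 to 4). The numbers were therefore not taken as pairs, and whether such corneas shared a batch was not tested. With the replicate block no member was called (Pax6 -0.20, Klf4 -0.25, Klf5 -0.26, Ehf 0.10, Elf3 -0.20, Tfap2a -0.01, Tfap2b 0.72, Foxc1 -0.25, Foxc2 -0.04). Of the called genes in the gene lists, Klf6, Etv5, Foxo6, Six2, Msx2, Dsg1a and Dsg1b lost the call with it (limma adjusted p from 0.0118 to 0.0493), while Etv4, Tfap2e, Sox9 and Lama3 kept it. The 2 settings that leave out several corneas and voom with recovered size factors were chosen after seeing the data; voom with TMM scaling was not run because the deposited values are not counts. Foxc2, with at most 61 reads, is limited by depth.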

Other observations

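Of the 36 protein-coding genes nearest to the members (the nearest pair on each side of each), 2 were called between the strains, beside 5.74% of all genes tested. Apip, an enzyme of methionine salvage that starts 229.6 kb from Ehf, had a mean rlog value of 9.68 in BALB/c and 9.13 in C57BL/6N (0.54, SE 0.0821, limma adjusted p = 0.00229). Rnpep, an aminopeptidase gene that starts 25.5 kb from Elf3, had 12.25 in BALB/c and 12.74 in C57BL/6N (-0.48, SE 0.0794, limma adjusted p = 0.00371). Apip missed the threshold without BALB/c replicate 3 (limma adjusted p = 0.0109), and Rnpep without C57BL/6N replicate 1, 2 or 4 (limma adjusted p up to 0.014). The members beside them, Ehf and Elf3, were not called. Chosen after the values were seen, Elp4 next to Pax6 (-0.33, limma adjusted p = 0.0326), Rad23b next to Klf4 (-0.27, limma adjusted p = 0.0304) and Gmds next to Foxc1 (-0.34, limma adjusted p = 0.0216) had differences of the same sign as their neighbour, while Irf8 next to Foxc2 (0.57, limma adjusted p = 0.0158) had the opposite sign. None of these 4 passed the threshold.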
